A study of Mus musculus with 6 samples.

Results

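The gene set described here consists of 46 mouse genes of DNA replication and DNA repair, given as a list of symbols and followed through 6 RNA-seq libraries. All 46 had a row among the 55416 gene identifiers of the tables, and all 46 passed the filter on low counts, as did 16975 genes in all. The libraries came from small intestinal organoids, which are epithelial cultures grown in Matrigel from the intestinal lining, here of mice aged 4-8 weeks and kept in IntestiCult medium. Every group, control included, was homozygous (Tg/Tg) for Rosa26-rtTA and likewise (Tg/Tg) for Col1A1-TetO-OSKM. In such cells the reverse tetracycline transactivator, made from the Rosa26 locus, switches on Oct4 (gene Pou5f1), Sox2, Klf4 and Myc when doxycycline is present. The control group received no doxycycline, and doxycycline was given at 0.1 or 0.5 µg/ml for 3 days in the others, with 2 libraries in each of the 3 groups. No group without the transgenes is part of these comparisons, so doxycycline itself and the factors it induces cannot be told apart. The labels number the libraries 1 and 2 and the series describes them as biological replicates, but whether they are separate mice or cultures is not stated, so the p-values measure a spread that may be technical.

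Replication starts when the origin recognition complex, Cdc6 and Cdt1 load the ring-shaped MCM helicase onto DNA, a step called licensing that geminin restrains. Cdc45 and GINS then switch the helicase on, and polymerases, primase, the sliding clamp PCNA with its loader RFC, the flap endonuclease Fen1 and DNA ligase copy and join the strands from nucleotides that ribonucleotide reductase and thymidylate synthase supply. Repair proteins watch over the same DNA, with ATM and ATR as signalling kinases, BRCA1, BRCA2 and the Fanconi anaemia proteins in recombination and crosslink repair, PARP1 and XRCC1 at single-strand breaks, and the Ku proteins at broken ends. In the intestinal lining these genes are known to be most active in the dividing cells of the crypt.

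Library totals ranged from 45289760 to 72547738 expected counts. The 4 factor genes summed to 78.2 and 72.5 CPM in the control libraries, 683 and 710.1 CPM under 0.1 µg/ml and 2316 and 2487 CPM under 0.5 µg/ml, where CPM are counts per 1e+06 after scaling of library sizes. Summed levels of 10 epithelial markers were 6303 to 6376 CPM in control, 7603 to 7846 CPM at 0.1 µg/ml and 9634 to 9723 CPM at 0.5 µg/ml. Most of this difference came from Krt8 (mean 1144 CPM in control and 3102 CPM at 0.5 µg/ml) and Krt19 (843 and 1648 CPM). Of the 10, 6 passed the test as higher at 0.5 µg/ml and 4 as lower, among them Epcam (784 and 588 CPM) and Cdx2 (178 and 58.6 CPM). Markers of other cell types were low, and their sums were higher with dose, carried by a few genes. From control to 0.5 µg/ml, 10 fibroblast markers went from 1.62 to 1.84 CPM in sum to 6.32 to 7.14 CPM, 10 immune markers from 5.09 to 5.15 CPM to 14.9 to 15.6 CPM, and 8 endothelial markers from 0.790 to 1.04 CPM to 5.03 to 5.52 CPM. Cd68 made up most of the immune sum (2.23 CPM in control and 13.5 CPM at 0.5 µg/ml), Col1a1 and Dcn most of the fibroblast sum at 0.5 µg/ml (3.92 and 1.78 CPM) and Tek most of the endothelial one (3.63 CPM), while Pdgfrb (1.09 and 0.233 CPM) and Itgam (2.17 and 0.861 CPM) were called lower. Markers at 0 in all 6 libraries included Adgre1 among the immune ones and Cdh5 and Emcn among the endothelial ones. The part of these cells in the results below was not tested, and in RNA from whole cultures fewer cells of a type and less RNA per cell cannot be told apart.

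At 0.5 µg/ml members were called in both directions, more of them lower than higher. Of the 46 genes, 13 were higher than in control, 18 were lower and 15 did not pass the test (edgeR quasi-likelihood test, two-sided, Benjamini-Hochberg adjusted p under 0.05 over all 16975 genes). The shares of all tested genes were 34.4% for higher, 33.1% for lower and 67.5% for either direction. The changes of the set were small. Just 2 members, Parp1 and Xrcc5, were at least 1.5-fold higher, against 20.7% of all genes, and 1 member, Rfc3, was at least 1.5-fold lower, against 19.0% of all genes. The other 43 members lay within 1.5-fold of control, as did 56% of all tested genes. The median absolute log2 fold change was 0.24 over the members and 0.49 over all tested genes, and the signed medians were -0.08 and -0.00. The 2 libraries at 0.5 µg/ml lay clear of both control libraries for 37 of 46 members, and for 84.1% of all genes. Without the second library at 0.5 µg/ml the number of higher members was 8. The balance depended on the scaling and tool, with 10 higher and 26 lower under upper quartile scaling, 9 and 26 under scaling by total counts, 8 and 19 in limma on log2(TPM + 1), and 13 and 14 in DESeq2.

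**Figure D1:**
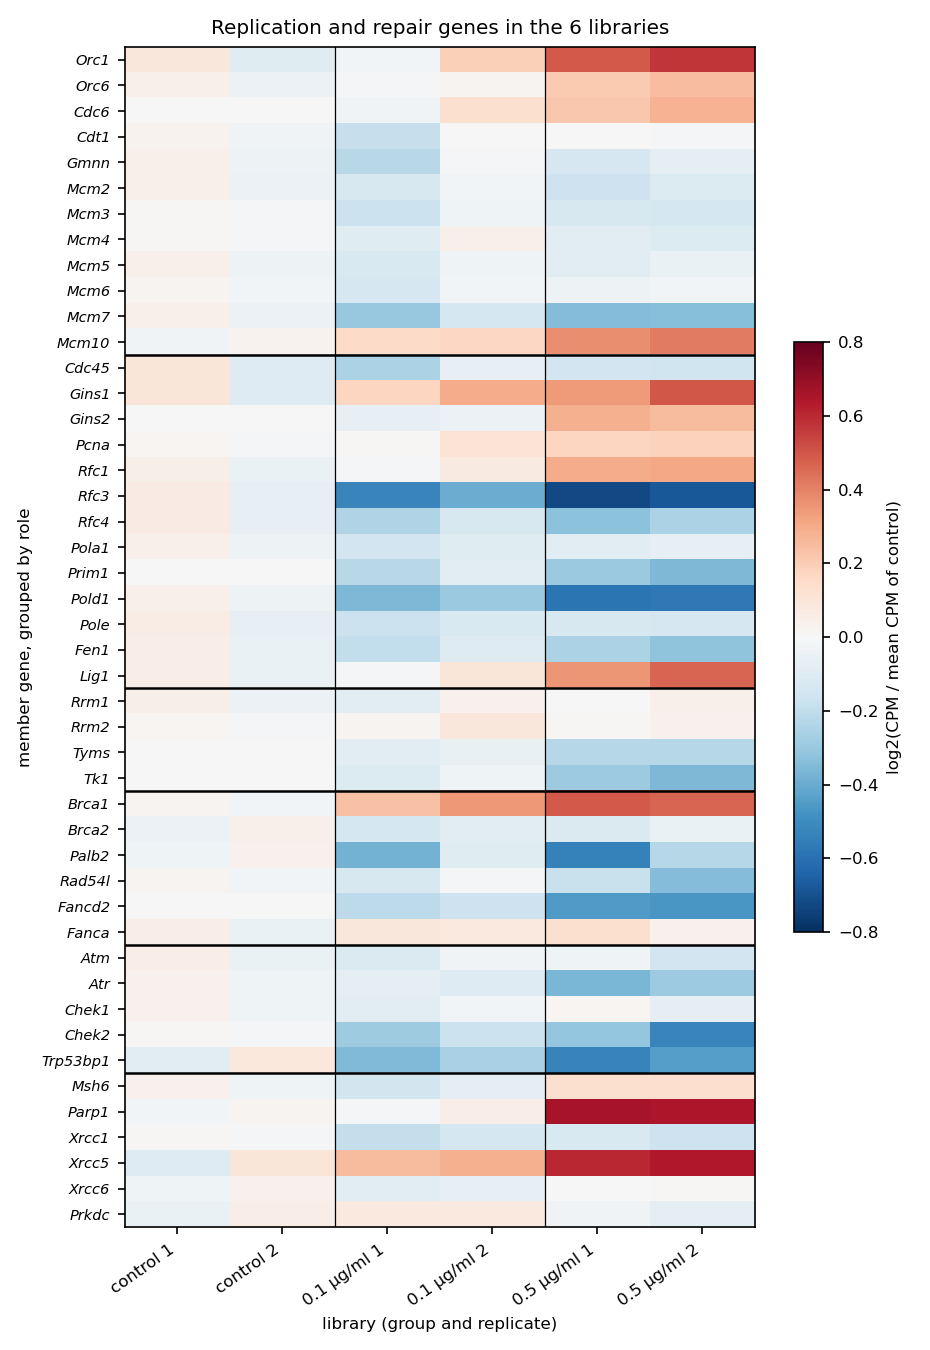
Heat map of the 46 genes (rows, grouped by role, with thick lines between roles) in the 6 libraries (columns), as log2 of CPM over the mean CPM of the 2 control libraries. Rows of Parp1, Xrcc5, Orc1 and Brca1 are red at 0.5 µg/ml and rows of Rfc3, Pold1, Fancd2 and Trp53bp1 are blue, while Cdt1, Rrm1, Rrm2 and Xrcc6 stay pale throughout.

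At 0.1 µg/ml fewer members passed. There were 3 higher members, Mcm10, Brca1 and Xrcc5, and 7 lower ones, Mcm7, Rfc3, Pold1, Fancd2, Chek2, Trp53bp1 and Xrcc1, and 36 did not pass, where the shares of all tested genes were 20.8% for higher, 13.8% for lower and 34.6% for either. All 46 members lay within 1.5-fold of control, against 78.4% of all genes, whereas 9.67% of all genes were called at least 1.5-fold higher and 5.17% at least 1.5-fold lower. The treated libraries lay clear of the control libraries for 28 of 46 members and for 67.8% of all genes. Each of these 10 members passed in the same direction at 0.5 µg/ml. The comparisons of the doses with control share the control libraries, so these directions are not independent of each other. Directly between the doses, 12 members were higher and 8 lower at 0.5 than at 0.1 µg/ml and 26 did not pass, against 29.8% and 29.1% of all genes, or 58.9% in either direction. The libraries of the doses did not overlap for 29 of 46 members and for 80.7% of all genes. Parp1 alone among the members differed by at least 1.5-fold between the doses, where 15.1% of all genes were that much higher and 14.8% that much lower. Without the second library at either dose the number of members lower at 0.5 than at 0.1 µg/ml was 4. Which direction had more calls between the doses changed with the scaling and tool: 10 members were higher and 13 lower under upper quartile scaling, 9 and 13 under scaling by total counts, 5 and 10 in limma on log2(TPM + 1), and 12 and 4 in DESeq2.

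The 2 libraries at 0.1 µg/ml differed from each other over this set. In 44 of 46 members the first was the lower one, while over all tested genes it was the lower one in 48.1%. The members summed to 2708 CPM in the first library and 2888 CPM in the second, beside 2947 and 2859 CPM in control and 2928 and 2944 CPM at 0.5 µg/ml. In control 11 of 46 members, and at 0.5 µg/ml 27 of 46, were lower in the first library. The number of members called lower at 0.1 µg/ml rested on these libraries, in that it was 3 without the first, 13 without the second and 7 with both. It was 3 without the first control library and 11 without the second. The 3 higher calls at this dose went to 1 without the first control library or without either library at 0.1 µg/ml.

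**Figure D2:**
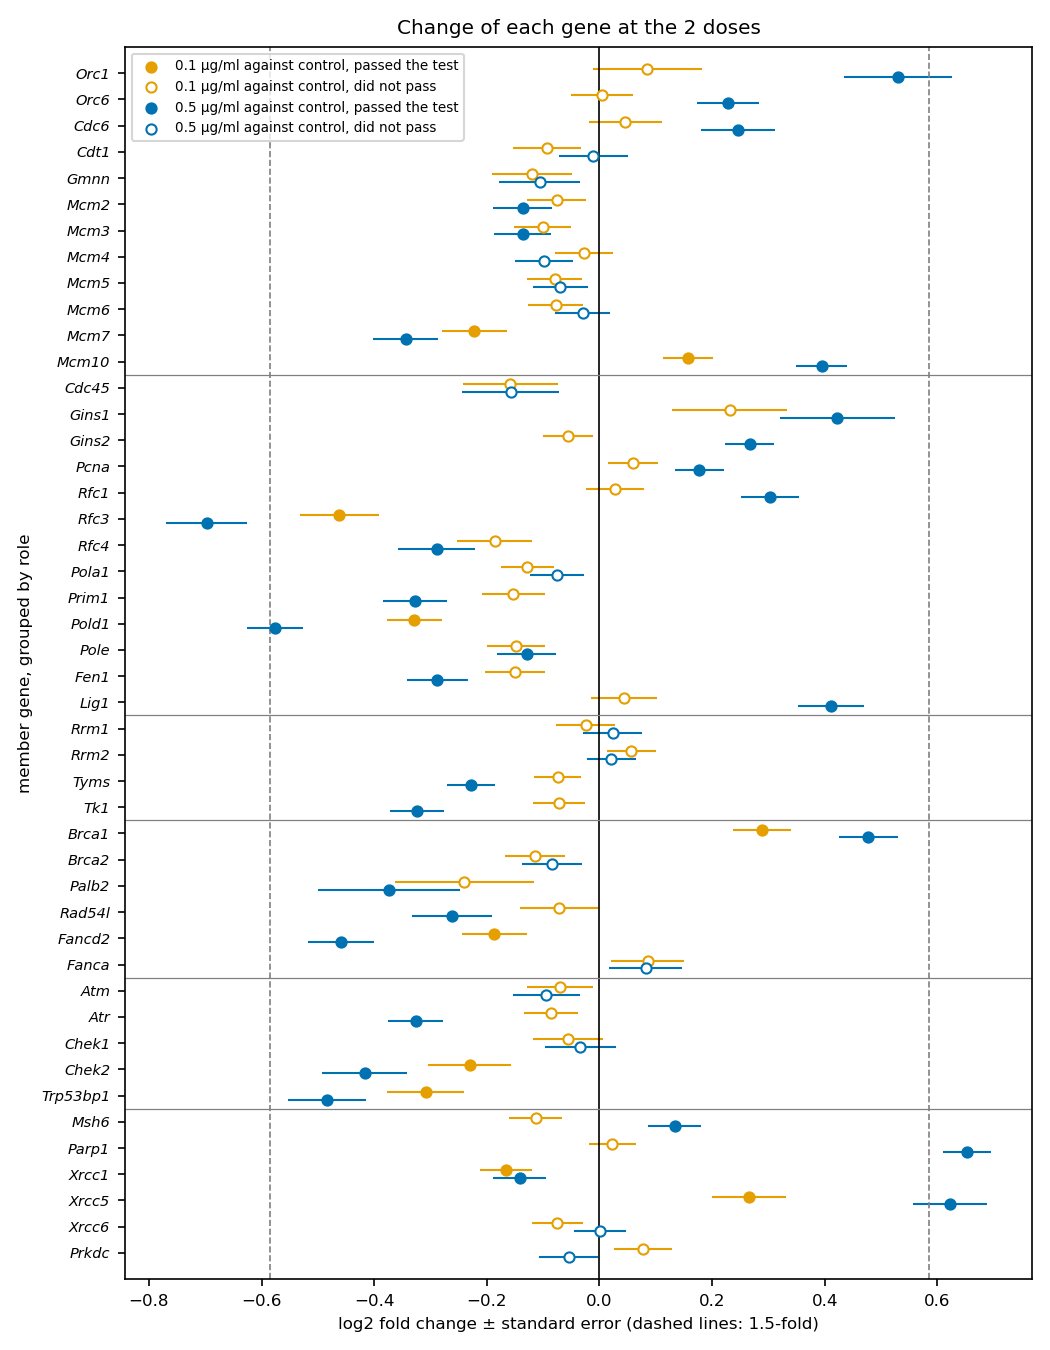
Log2 fold change against control (x axis) of each of the 46 genes (y axis, grouped by role) at 0.1 µg/ml (orange) and 0.5 µg/ml (blue), with bars of 1 standard error; filled points passed the test and open points did not. Dashed lines mark 1.5-fold, and the blue points of Parp1, Xrcc5 and Rfc3 lie beyond them while every orange point lies between them.

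RefSeq promoter windows (build GRCm38.p6, 250 bases before to 50 after a transcript start) were found for 39 of the 46 members, in 44 windows, and for 27025 genes in all. E2F proteins are the classical activators of replication genes at the start of S phase. The E2F-type letters TTTCGCGC, TTTGGCGC, TTTCCCGC and TTTGCCGC, searched on both strands, stood in windows of 15 of 39 members (38.5%) and of 2.6% of all genes. They were found in 7 of the 10 members with a window in the licensing class, which here includes Mcm10. Of the 15 members, 4 rose at 0.5 µg/ml, 5 fell and 6 did not pass. Of the 24 members whose windows lacked the letters, 7 rose, 11 fell and 6 did not pass. Over all tested genes 34.4% were higher and 33.1% lower. The E-box letters CACGTG, which the induced factor Myc is known to bind, stood in windows of 6 of 39 members (15.4%) and of 8.09% of all genes. Of these 6, Rfc1, Lig1, Parp1 and Xrcc5 rose at 0.5 µg/ml, and Fen1 and Tyms fell. Of the 33 members without CACGTG, 7 rose, 14 fell and 12 did not pass. Whether either set of letters bears on the direction was not tested. CCAAT was found for 26 of 39 members (66.7%, against 41.1% of genes) and the letters TTTGAA of the cell cycle homology region for 3 (7.69%, against 20.2%). A match describes letters and not binding, and the member windows were richer in G and C (57.9%, against 53.8%).

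As examples of matches, 6 windows are printed from 200 bases before the start to 10 bases from it, 5′ to 3′ on the gene's own strand. Matched letters are in capitals, and the position of their first base is counted from 0 at the first transcribed base. The relation of the letters to direction was not tested. The first 3 carry E2F-type letters. Orc1 rose, and its window at chr4:108579254-108579463 on the plus strand has a match at -27. Mcm6 did not pass, and its window at chr1:128359696-128359905 on the minus strand has matches at -110 and -106, which overlap, and at -47. Rfc3 fell, and its window at chr5:151651199-151651408 on the minus strand has matches at -10 and 0.
Orc1: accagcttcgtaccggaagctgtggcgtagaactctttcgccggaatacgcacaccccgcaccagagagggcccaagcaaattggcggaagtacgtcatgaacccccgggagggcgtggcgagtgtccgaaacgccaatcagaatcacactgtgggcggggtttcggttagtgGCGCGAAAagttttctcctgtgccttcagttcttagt
Mcm6: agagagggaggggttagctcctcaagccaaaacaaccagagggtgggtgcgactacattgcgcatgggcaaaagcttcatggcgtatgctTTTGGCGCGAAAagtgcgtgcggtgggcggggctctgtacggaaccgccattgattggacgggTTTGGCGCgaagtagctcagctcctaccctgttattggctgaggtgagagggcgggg
Rfc3: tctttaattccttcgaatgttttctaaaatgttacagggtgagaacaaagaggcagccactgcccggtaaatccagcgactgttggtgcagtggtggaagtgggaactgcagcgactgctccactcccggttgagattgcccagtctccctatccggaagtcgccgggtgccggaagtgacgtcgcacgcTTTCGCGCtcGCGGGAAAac
The other windows carry CACGTG. Parp1 and Xrcc5 rose, with windows at chr1:180568691-180568900 and chr1:72307221-72307430 on the plus strand and matches at -49 and -198. Tyms fell, and its window at chr5:30073616-30073825 on the minus strand has a match at -61.
Parp1: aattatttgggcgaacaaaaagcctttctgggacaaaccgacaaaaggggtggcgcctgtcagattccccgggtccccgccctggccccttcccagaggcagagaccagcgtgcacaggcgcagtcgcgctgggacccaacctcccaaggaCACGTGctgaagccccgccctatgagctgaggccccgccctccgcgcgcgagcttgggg
Xrcc5: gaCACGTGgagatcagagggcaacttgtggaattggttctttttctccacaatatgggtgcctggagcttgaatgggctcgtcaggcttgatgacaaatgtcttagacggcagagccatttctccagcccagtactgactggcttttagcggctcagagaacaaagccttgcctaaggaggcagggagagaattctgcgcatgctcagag
Tyms: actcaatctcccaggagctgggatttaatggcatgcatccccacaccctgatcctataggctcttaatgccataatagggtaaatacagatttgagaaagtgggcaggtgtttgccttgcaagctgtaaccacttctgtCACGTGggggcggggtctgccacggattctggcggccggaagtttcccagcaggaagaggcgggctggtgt

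The licensing class held 12 genes, with Mcm10 counted among them although it acts on the helicase after loading. At 0.5 µg/ml 4 rose (Orc1, Orc6, Cdc6 and Mcm10) and 3 fell (Mcm2, Mcm3 and Mcm7). The other 5 did not pass (Cdt1, Gmnn, Mcm4, Mcm5 and Mcm6). That was 33.3% higher and 25% lower, against 34.4% and 33.1% of all tested genes. Orc1, the largest subunit of the origin recognition complex, had 12.3 and 10.8 CPM in the control libraries, 11.4 and 13.2 under 0.1 µg/ml, and 16.2 and 17.2 under 0.5 µg/ml. Both 0.5 µg/ml libraries lay above the other 4, which overlapped, and the log2 fold change against control was 0.53 ± 0.10 (± standard error, edgeR adjusted p = 7.82e-04). Mcm10, which helps the loaded helicase to start and binds polymerase alpha, rose in steps, with 53.4 and 55.7 CPM in the control libraries, 60.6 and 61.1 under 0.1 µg/ml, and 70.5 and 72.9 under 0.5 µg/ml. Its log2 fold changes were 0.16 ± 0.05 at 0.1 µg/ml (adjusted p = 0.0233) and 0.39 ± 0.05 at 0.5 µg/ml (adjusted p = 3.21e-05). The call at the lower dose was lost under other scalings and when any of the 6 libraries was left out (adjusted p = 0.0511 to 0.178).

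Smaller rises were those of Orc6, the smallest subunit of the same complex, and of Cdc6, the ATPase that joins it to load MCM. Orc6 had 24.8 and 23.3 CPM in the control libraries, 23.8 and 24.4 under 0.1 µg/ml, and 27.8 and 28.5 under 0.5 µg/ml, and its log2 fold change at 0.5 µg/ml was 0.23 ± 0.06 (adjusted p = 0.00458). Cdc6 had 22.5 and 22.4 CPM in the control libraries, 22.0 and 24.5 under 0.1 µg/ml, and 26.0 and 27.2 under 0.5 µg/ml, with a log2 fold change of 0.25 ± 0.07 (adjusted p = 0.00731). Neither gene's 0.5 µg/ml libraries overlapped control. Both calls were lost with libraries scaled by total counts, and without the second library at 0.5 µg/ml (adjusted p = 0.0613 for Orc6 and 0.091 for Cdc6); Orc6 also lost it without the second control library (adjusted p = 0.0678).

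The 6 subunits of the MCM2-7 helicase ring all had negative log2 fold changes at both doses, except Mcm4 at 0.1 µg/ml (0.0292) when the first library at that dose was left out. Mcm7 changed most, with 172 and 161 CPM in the control libraries, 135 and 151 under 0.1 µg/ml, and 131 and 131 under 0.5 µg/ml. All 4 treated libraries lay below control, with log2 fold changes of -0.22 ± 0.06 at 0.1 µg/ml (adjusted p = 0.0145) and -0.34 ± 0.06 at 0.5 µg/ml (adjusted p = 4.66e-04). The call at 0.1 µg/ml was lost without the first control library (adjusted p = 0.065) or without the first library at that dose (adjusted p = 0.0933). Mcm2 had 99.0 and 93.2 CPM in the control libraries, 87.9 and 94.6 under 0.1 µg/ml, and 85.8 and 89.1 under 0.5 µg/ml, and Mcm3 had 112 and 110.1 CPM in the control libraries, 98.7 and 108 under 0.1 µg/ml, and 102 and 101 under 0.5 µg/ml. Each had a log2 fold change of -0.14 ± 0.05 at 0.5 µg/ml (adjusted p = 0.0429 and 0.0378), with DESeq2 adjusted p of 0.1 and 0.0836. Leaving out the first control library ended both (adjusted p = 0.212 and 0.116), as did leaving out either 0.5 µg/ml library (adjusted p = 0.0525 to 0.151). Mcm4 (-0.10 ± 0.05), Mcm5 (-0.07 ± 0.05) and Mcm6 (-0.03 ± 0.05) did not pass at 0.5 µg/ml.

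In TPM, which divides by transcript length and so allows levels of different genes to be compared, Mcm7 was the highest and Mcm4 the lowest of the ring subunits in every library. Their ratio was 2.92 and 2.81 in the control libraries, 2.52 and 2.58 under 0.1 µg/ml and 2.49 and 2.18 under 0.5 µg/ml, so the treated libraries lay below both control libraries. Cdt1, which brings MCM to the origin, had 56.5 and 54.4 CPM in the control libraries, 48.8 and 55.4 under 0.1 µg/ml, and 55.3 and 54.7 under 0.5 µg/ml. Gmnn encodes geminin, which binds and blocks Cdt1, and had 30.8 and 29.1 CPM in the control libraries, 25.7 and 29.6 under 0.1 µg/ml, and 27.2 and 28.3 under 0.5 µg/ml. For both genes the first 0.1 µg/ml library was the lowest, and the log2 fold changes at 0.5 µg/ml were -0.01 ± 0.06 (95% interval -0.15 to 0.13) for Cdt1 and -0.11 ± 0.07 (95% interval -0.27 to 0.06) for Gmnn. The ratio of Cdt1 to Gmnn in TPM stayed between 0.731 and 0.795 in the 6 libraries.

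Of the 13 genes of helicase activation and the fork, 5 rose at 0.5 µg/ml (Gins1, Gins2, Pcna, Rfc1 and Lig1). A further 6 fell (Rfc3, Rfc4, Prim1, Pold1, Pole and Fen1) and 2 did not pass (Cdc45 and Pola1). These were 38.5% higher and 46.2% lower, beside 34.4% and 33.1% of all tested genes. Rfc3, a small subunit of the clamp loader, had 27.4 and 25.0 CPM in the control libraries, 18.2 and 19.9 under 0.1 µg/ml, and 15.9 and 16.4 under 0.5 µg/ml, and no library of one group overlapped another group. Its log2 fold change was -0.46 ± 0.07 at 0.1 µg/ml (adjusted p = 7.70e-04) and -0.70 ± 0.07 at 0.5 µg/ml (adjusted p = 1.56e-05), the lowest of the 46 members. Rfc1, the large subunit of the same complex, had 76.0 and 70.9 CPM in the control libraries, 72.7 and 77.2 under 0.1 µg/ml, and 90.1 and 91.2 under 0.5 µg/ml. It rose by 0.30 ± 0.05 on the log2 scale at 0.5 µg/ml (adjusted p = 4.87e-04) and not detectably at 0.1 µg/ml (0.03 ± 0.05). Rfc4, another small subunit, fell at 0.5 µg/ml with 28.5 and 26.0 CPM in the control libraries, 23.0 and 25.0 under 0.1 µg/ml, and 21.7 and 22.8 under 0.5 µg/ml, and a log2 fold change of -0.29 ± 0.07 (adjusted p = 0.00393).

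The catalytic subunit of polymerase delta, Pold1, had 49.3 and 46.7 CPM in the control libraries, 37.5 and 39.0 under 0.1 µg/ml, and 32.1 and 32.4 under 0.5 µg/ml, a stepwise fall without overlap between groups. Its log2 fold changes were -0.33 ± 0.05 at 0.1 µg/ml (adjusted p = 6.84e-04) and -0.58 ± 0.05 at 0.5 µg/ml (adjusted p = 4.39e-06). Pole, which encodes the catalytic subunit of polymerase epsilon, had 75.1 and 68.8 CPM in the control libraries, 63.8 and 66.1 under 0.1 µg/ml, and 65.8 and 65.6 under 0.5 µg/ml. Its log2 fold change of -0.13 ± 0.05 at 0.5 µg/ml was just past the threshold (adjusted p = 0.0489), and was not past it in DESeq2 (adjusted p = 0.135), or without the first control library, the first 0.1 µg/ml library or either 0.5 µg/ml library (adjusted p = 0.0596 to 0.309). Prim1, the catalytic subunit of primase, had 45.5 and 45.6 CPM in the control libraries, 39.1 and 43.0 under 0.1 µg/ml, and 37.2 and 35.5 under 0.5 µg/ml, and fell at 0.5 µg/ml with a log2 fold change of -0.33 ± 0.06 (adjusted p = 5.86e-04). Pola1, the polymerase subunit of the same enzyme complex, did not pass, with a log2 fold change of -0.08 ± 0.05 (95% interval -0.18 to 0.03).

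On the lagging strand Fen1 and Lig1 act one after the other, Fen1 cutting the flap and Lig1 sealing the nick, and they moved in opposite directions. Fen1 had 73.5 and 68.5 CPM in the control libraries, 62.0 and 66.0 under 0.1 µg/ml, and 59.5 and 56.8 under 0.5 µg/ml, and a log2 fold change at 0.5 µg/ml of -0.29 ± 0.05 (adjusted p = 9.97e-04). Lig1 had 93.2 and 86.7 CPM in the control libraries, 89.4 and 96.3 under 0.1 µg/ml, and 115 and 124 under 0.5 µg/ml, and a log2 fold change of 0.41 ± 0.06 (adjusted p = 1.59e-04). For Lig1 the control and 0.1 µg/ml libraries overlapped and both 0.5 µg/ml libraries lay above them. Both calls held under each of the 15 alternative settings tried. Fen1 exons overlap an antisense transcript over 1909 bases in GENCODE M21, and whether reads were counted by strand is not stated.

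Pcna, the sliding clamp, had 254 and 248 CPM in the control libraries, 253 and 271 under 0.1 µg/ml, and 283 and 285 under 0.5 µg/ml, and the log2 fold change at 0.5 µg/ml was 0.18 ± 0.04 (adjusted p = 0.00532). With scaling by total counts it was 0.0868 (adjusted p = 0.119), and the call was also lost without the second control library (adjusted p = 0.0642) or the second 0.5 µg/ml library (adjusted p = 0.0607). RSEM shares reads between similar sequences, and GENCODE M21 lists Pcna-ps1 and Pcna-ps2 as pseudogene copies. Gins1, a subunit of the GINS helicase activator, had 9.44 and 8.20 CPM in the control libraries, 9.93 and 10.8 under 0.1 µg/ml, and 11.2 and 12.4 under 0.5 µg/ml. Its log2 fold change of 0.42 ± 0.10 at 0.5 µg/ml (adjusted p = 0.00459) did not pass without the second library at that dose (adjusted p = 0.065). Cdc45, the partner of GINS on the helicase, had 22.9 and 19.9 CPM in the control libraries, 18.0 and 20.5 under 0.1 µg/ml, and 19.2 and 19.1 under 0.5 µg/ml, and did not pass.

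Gins2, another GINS subunit, gave a result that depended on the unit. In counts it had 40.3 and 40.2 CPM in the control libraries, 38.5 and 39.0 under 0.1 µg/ml, and 48.9 and 47.9 under 0.5 µg/ml, and a log2 fold change of 0.27 ± 0.04 at 0.5 µg/ml (adjusted p = 4.25e-04). The deposited TPM were 18.0 and 16.6 TPM in the control libraries, 14.3 and 16.5 under 0.1 µg/ml, and 15.0 and 15.4 under 0.5 µg/ml, and limma on log2(TPM + 1) gave a log2 difference of -0.176 (adjusted p = 0.101). It was the sole called member whose sign changed under any of the 15 alternatives. In GENCODE M21 its exons overlap those of Gse1 on the other strand over 2758 bases, and the part of this overlap was not tested.

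**Figure D3:**
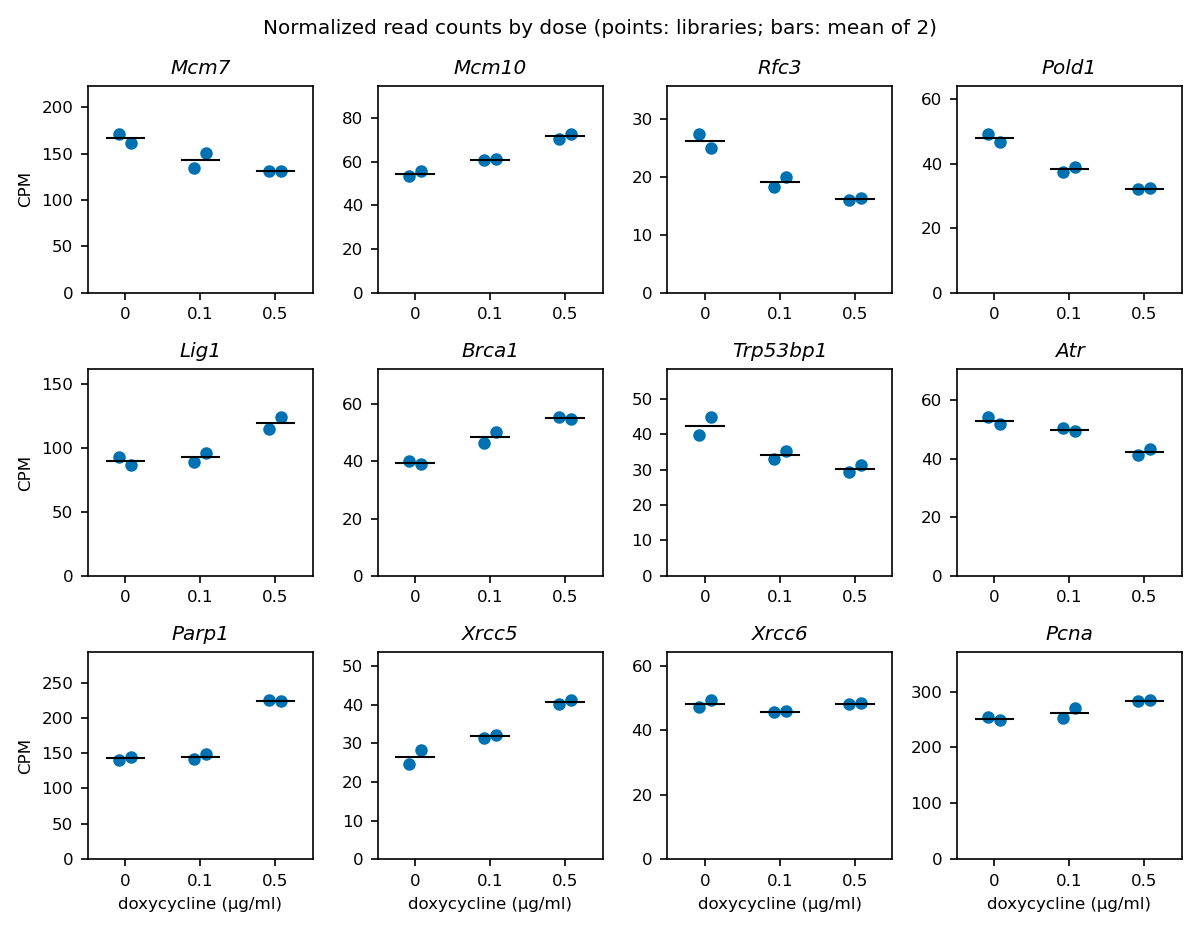
CPM (y axis, linear from 0) of 12 members against the doxycycline dose in µg/ml (x axis, categories); points are the 2 libraries of a group and bars their mean. Rfc3 and Pold1 fall and Mcm10, Brca1 and Xrcc5 rise in steps, Parp1 and Lig1 differ from control at 0.5 µg/ml only, and Xrcc6 lies between 45.5 and 49.4 CPM in all 6 libraries.

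The 4 members of nucleotide supply divided by pathway, with none higher at 0.5 µg/ml, the 2 thymidylate genes lower and the 2 ribonucleotide reductase genes not past the test. Tk1, thymidine kinase, had 71.4 and 71.9 CPM in the control libraries, 66.5 and 69.9 under 0.1 µg/ml, and 58.6 and 55.9 under 0.5 µg/ml, with a log2 fold change of -0.32 ± 0.05 at 0.5 µg/ml (adjusted p = 1.82e-04). Tyms, thymidylate synthase, had 57.3 and 57.0 CPM in the control libraries, 53.7 and 54.9 under 0.1 µg/ml, and 48.7 and 48.8 under 0.5 µg/ml, with a log2 fold change of -0.23 ± 0.04 (adjusted p = 9.17e-04). Both genes were also lower at 0.5 than at 0.1 µg/ml (adjusted p = 0.00122 and 0.0107), though for Tyms not when 1 library was left out from the second at 0.1 µg/ml or either at 0.5 µg/ml (adjusted p = 0.0556 to 0.063). Tyms has a listed pseudogene copy, Tyms-ps. Rrm1, the large subunit of ribonucleotide reductase, had 185 and 173 CPM in the control libraries, 169 and 183 under 0.1 µg/ml, and 179.7 and 184 under 0.5 µg/ml, and Rrm2, its small subunit, had 101 and 98.7 CPM in the control libraries, 101 and 106 under 0.1 µg/ml, and 100.3 and 102 under 0.5 µg/ml. Their libraries overlapped between control and 0.5 µg/ml, and the 95% intervals of the log2 fold change were -0.09 to 0.14 and -0.08 to 0.12, inside 1.5-fold.

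In homologous recombination and the Fanconi anaemia pathway Brca1 rose, Palb2, Rad54l and Fancd2 fell, and Brca2 and Fanca did not pass at 0.5 µg/ml. Among all tested genes 34.4% were higher and 33.1% lower. Brca1, which prepares broken ends for recombination, had 40.2 and 38.9 CPM in the control libraries, 46.5 and 50.3 under 0.1 µg/ml, and 55.5 and 54.7 under 0.5 µg/ml, with no overlap between groups. Its log2 fold changes were 0.29 ± 0.05 at 0.1 µg/ml (adjusted p = 0.0021) and 0.48 ± 0.05 at 0.5 µg/ml (adjusted p = 2.26e-05). Palb2, which links Brca1 to Brca2, had 11.3 and 11.8 CPM in the control libraries, 8.90 and 10.8 under 0.1 µg/ml, and 7.95 and 9.88 under 0.5 µg/ml. Its log2 fold change at 0.5 µg/ml was -0.37 ± 0.13 (adjusted p = 0.0245). The call was lost without the first library at that dose (log2 fold change -0.249) or the second control library (-0.368). In limma on log2(TPM + 1) the log2 difference was -0.13 (adjusted p = 0.404). Brca2, a core protein of homologous recombination, had 36.2 and 38.4 CPM in the control libraries, 33.8 and 35.2 under 0.1 µg/ml, and 34.4 and 35.9 under 0.5 µg/ml. Its log2 fold change at 0.5 µg/ml was -0.08 ± 0.05 (95% interval -0.20 to 0.04). The unit mattered for Brca2, with 5.45 and 7.22 TPM in control and 6.69 and 9.44 TPM at 0.5 µg/ml. In limma on log2(TPM + 1) the log2 difference was 0.299 (adjusted p = 0.163), outside that interval.

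Fancd2, the protein that is ubiquitinated at crosslinks, had 22.0 and 22.1 CPM in the control libraries, 19.1 and 19.7 under 0.1 µg/ml, and 16.1 and 16.0 under 0.5 µg/ml. It fell in steps, with log2 fold changes of -0.19 ± 0.06 (adjusted p = 0.0314) and -0.46 ± 0.06 (adjusted p = 7.46e-05) against control. The call at 0.1 µg/ml was lost without either control library or the first library at that dose (adjusted p = 0.0664 to 0.136). Rad54l, a motor protein of strand exchange, had 25.3 and 24.6 CPM in the control libraries, 22.8 and 24.8 under 0.1 µg/ml, and 22.0 and 19.7 under 0.5 µg/ml, and fell at 0.5 µg/ml with a log2 fold change of -0.26 ± 0.07 (adjusted p = 0.00839, or 0.0658 without the second library at that dose). Fanca, of the Fanconi core complex, had 19.9 and 18.5 CPM in the control libraries, 20.4 and 20.2 under 0.1 µg/ml, and 20.9 and 19.7 under 0.5 µg/ml, with overlap between control and 0.5 µg/ml.

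No member of the damage kinase and checkpoint class was higher at 0.5 µg/ml, 3 were lower (Atr, Chek2 and Trp53bp1) and 2 did not pass (Atm and Chek1). Atr, the kinase that answers to stalled forks, had 54.2 and 51.7 CPM in the control libraries, 50.4 and 49.4 under 0.1 µg/ml, and 41.1 and 43.3 under 0.5 µg/ml, with both 0.5 µg/ml libraries below the other 4. Its log2 fold change at 0.5 µg/ml was -0.33 ± 0.05 (adjusted p = 2.25e-04), and -0.09 ± 0.05 at 0.1 µg/ml, which did not pass. Atm, the kinase that answers to double-strand breaks, had 54.3 and 50.6 CPM in the control libraries, 48.5 and 51.5 under 0.1 µg/ml, and 51.2 and 47.1 under 0.5 µg/ml, with overlap between groups and a log2 fold change of -0.09 ± 0.06 (95% interval -0.23 to 0.04). In TPM the ratio of Atr to Atm was 1.18 and 1.25 in the control libraries, 1.12 and 1.09 under 0.1 µg/ml and 0.985 and 1.00 under 0.5 µg/ml. The difference between these changes was not tested.

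Of the effector kinases, Chek2, a target of ATM, fell and Chek1, a target of ATR, did not pass. Chek2 had 31.8 and 31.3 CPM in the control libraries, 25.9 and 27.9 under 0.1 µg/ml, and 25.5 and 21.8 under 0.5 µg/ml, and log2 fold changes of -0.23 ± 0.07 at 0.1 µg/ml (adjusted p = 0.0367) and -0.42 ± 0.08 at 0.5 µg/ml (adjusted p = 7.55e-04). At 0.1 µg/ml its call was lost without either control library or the first library at that dose (adjusted p = 0.0584 to 0.192). Chek1 had 22.0 and 20.9 CPM in the control libraries, 20.2 and 21.1 under 0.1 µg/ml, and 21.6 and 20.3 under 0.5 µg/ml, with overlap between groups and a 95% interval of -0.18 to 0.11 for the log2 fold change at 0.5 µg/ml. Trp53bp1, the break-binding protein that favours end joining over recombination, had 39.6 and 44.8 CPM in the control libraries, 33.1 and 35.2 under 0.1 µg/ml, and 29.2 and 31.2 under 0.5 µg/ml. It fell, with log2 fold changes of -0.31 ± 0.07 at 0.1 µg/ml (adjusted p = 0.00642) and -0.48 ± 0.07 at 0.5 µg/ml (adjusted p = 1.55e-04), and was called at both doses under all 15 alternatives. Its exons overlap those of Tubgcp4 on the other strand over 1873 bases.

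In the last class, of mismatch repair, single-strand break repair and end joining, 3 of 6 members rose at 0.5 µg/ml (Msh6, Parp1 and Xrcc5), Xrcc1 fell, and Xrcc6 and Prkdc did not pass. Parp1, the sensor of strand breaks that builds poly(ADP-ribose), had 141 and 145 CPM in the control libraries, 142 and 148 under 0.1 µg/ml, and 225 and 224 under 0.5 µg/ml. The 0.1 µg/ml libraries overlapped control and the 0.5 µg/ml libraries stood apart, with log2 fold changes of 0.02 ± 0.04 (adjusted p = 0.714) and 0.65 ± 0.04 (adjusted p = 4.93e-07) and of 0.63 ± 0.04 between the doses (adjusted p = 1.19e-06). This was the highest log2 fold change of the 46 members. Xrcc1, the scaffold that poly(ADP-ribose) recruits, had 44.5 and 43.9 CPM in the control libraries, 38.7 and 40.0 under 0.1 µg/ml, and 40.6 and 39.4 under 0.5 µg/ml. It was lower at both doses, with log2 fold changes of -0.17 ± 0.05 (adjusted p = 0.0201) and -0.14 ± 0.05 (adjusted p = 0.0214). Leaving out the first control library ended both calls (adjusted p = 0.0605 and 0.0782). The call at 0.1 µg/ml was also lost without the first library at that dose (adjusted p = 0.111), and that at 0.5 µg/ml without the second library at that dose (adjusted p = 0.0837) or in DESeq2 (adjusted p = 0.101).

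Xrcc5 and Xrcc6 encode Ku80 and Ku70, the partners of the ring that caps broken ends. Xrcc5 had 24.6 and 28.3 CPM in the control libraries, 31.5 and 32.1 under 0.1 µg/ml, and 40.2 and 41.2 under 0.5 µg/ml, a rise in steps without overlap between groups. Its log2 fold changes were 0.27 ± 0.07 at 0.1 µg/ml (adjusted p = 0.0119) and 0.62 ± 0.07 at 0.5 µg/ml (adjusted p = 1.83e-05), and the call at 0.1 µg/ml was lost without the first control library or either library at that dose (adjusted p = 0.0537 to 0.106). Xrcc6 had 47.1 and 49.4 CPM in the control libraries, 45.5 and 46.1 under 0.1 µg/ml, and 48.0 and 48.5 under 0.5 µg/ml, and a 95% interval of -0.10 to 0.10 for the log2 fold change at 0.5 µg/ml. In TPM the ratio of Xrcc5 to Xrcc6 was 0.352 and 0.430 in the control libraries, 0.494 and 0.521 under 0.1 µg/ml and 0.609 and 0.572 under 0.5 µg/ml, so Xrcc6 remained the higher of the pair. Prkdc, the kinase that Ku recruits, had 35.8 and 38.5 CPM in the control libraries, 39.2 and 39.2 under 0.1 µg/ml, and 36.4 and 35.2 under 0.5 µg/ml, and did not pass.

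Msh6, part of the mismatch sensor, was higher at 0.5 µg/ml than in either other group. It had 84.9 and 81.0 CPM in the control libraries, 74.8 and 78.6 under 0.1 µg/ml, and 90.8 and 91.1 under 0.5 µg/ml. Its log2 fold change was 0.13 ± 0.05 at 0.5 µg/ml against control (adjusted p = 0.0279) and 0.25 ± 0.05 against 0.1 µg/ml (adjusted p = 0.00127). The call against control was lost under scaling by total counts (adjusted p = 0.442) and without the second control library, the second 0.1 µg/ml library or either 0.5 µg/ml library (adjusted p = 0.0721 to 0.295), while the call between the doses held under all 15 alternatives.

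A wider list held 155 other genes of the same pathways, of which 154 were tested. At 0.5 µg/ml 36 were higher (23.4%, against 34.4% of all tested genes), 60 were lower (39%, against 33.1%) and 58 did not pass. Their median log2 fold change was -0.08, the same to 2 decimals as that of the members. At 0.1 µg/ml 12 were higher (7.79%, against 20.8% of all tested genes) and 30 lower (19.5%, against 13.8%). Between the doses 37 were higher (24%, against 29.8%) and 46 lower (29.9%, against 29.1%). Their median absolute log2 fold change at 0.5 µg/ml against control was 0.22, beside 0.24 for the members. Within 1.5-fold of control lay 133 of the 154. At the extremes, some of these genes changed more than any member. Cdc7, the kinase that fires licensed origins, had 14.5 and 14.6 CPM in the control libraries, 31.6 and 32.7 under 0.1 µg/ml, and 64.7 and 62.6 under 0.5 µg/ml, and a log2 fold change of 2.13 ± 0.05 at 0.5 µg/ml (adjusted p = 5.51e-10). Dbf4, the subunit that activates Cdc7, had 63.5 and 60.0 CPM in the control libraries, 56.3 and 61.5 under 0.1 µg/ml, and 70.8 and 71.3 under 0.5 µg/ml, and a log2 fold change of 0.20 ± 0.05 (adjusted p = 0.00818). The lowest of the 154 was Neil3, a DNA glycosylase, with 17.6 and 20.7 CPM in the control libraries, 15.4 and 15.0 under 0.1 µg/ml, and 7.79 and 6.96 under 0.5 µg/ml, and a log2 fold change of -1.38 ± 0.10 (adjusted p = 9.71e-07).

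The counts by role at 0.5 µg/ml stand beside 34.4% higher and 33.1% lower over all tested genes. The other licensing and firing genes had 6 higher and 3 lower (Orc5, Mtbp and Mcm9) of 15. Other fork and polymerase subunits had 4 higher and 16 lower of 32. These ran from Dna2, a nuclease and helicase (-1.13 ± 0.05), to Rnaseh2a, a subunit of ribonuclease H2 (0.46 ± 0.04). The other genes of recombination and the Fanconi pathway had 1 higher, Fancm (0.23 ± 0.05), and 13 lower of 31, with the nuclease subunit Mus81 lowest (-0.89 ± 0.07). Among 14 other kinase and checkpoint genes Cdc25a, Rif1 and Rad1 were higher and 7 were lower, with the adaptor Mdc1 lowest (-0.76 ± 0.05). Nucleotide supply had 9 higher and 7 lower of 20, from Paics, of purine synthesis (1.01 ± 0.05), to Shmt1, of folate metabolism (-0.89 ± 0.05). The 42 excision, mismatch and end-joining genes had 13 higher and 14 lower, with the nuclease subunit Ercc1 highest (1.29 ± 0.08).

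**Figure D4:**
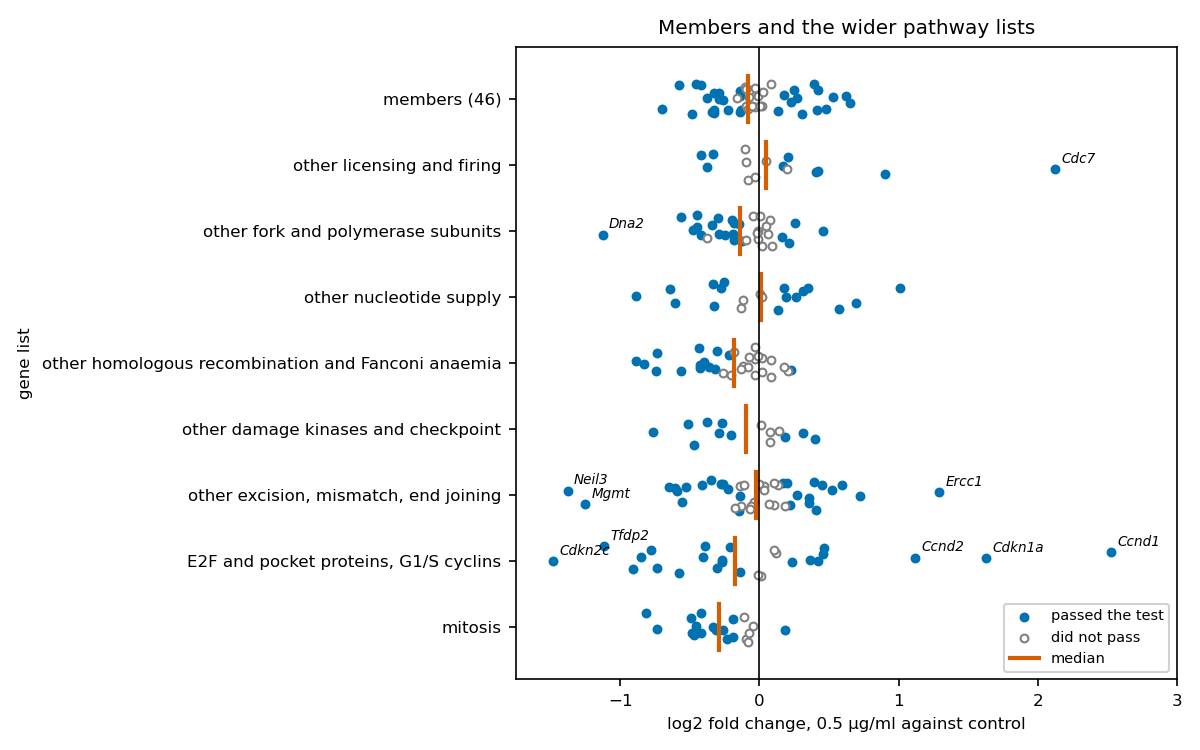
Log2 fold change at 0.5 µg/ml against control (x axis) of the 46 members, the other genes of each role, and 2 lists of cell cycle genes (y axis); each point is a gene, filled where it passed the test, and vertical bars are medians. The members lie between -0.70 and 0.65, while Cdc7 (2.13) and Ercc1 (1.29) lie above and Dna2 (-1.13) and Neil3 (-1.38) below that range.

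Together with these partners, members could be read as complexes, which were grouped after the values had been seen and are therefore a description. As a measure for the counts below, 67.5% of the 16975 genes passed in either direction at 0.5 µg/ml, 34.4% upward and 33.1% downward. Whether any complex departs from these shares was not tested. At 0.5 µg/ml the origin recognition complex had 4 of 6 subunits higher (Orc1, Orc2, Orc4 and Orc6) and Orc5 lower. GINS had 3 of 4 higher, with the reservation on Gins2 given above. The MCM2-7 ring had 3 of 6 lower and none higher, and of these Mcm2 and Mcm3 did not pass in DESeq2 (adjusted p = 0.1 and 0.0836). The clamp loader had Rfc1 higher and the 4 small subunits Rfc2, Rfc3, Rfc4 and Rfc5 lower. All 4 subunits of polymerase epsilon were lower, from -0.48 ± 0.05 for Pole4 to -0.13 ± 0.05 for Pole in log2 fold change. Pole itself was just past the threshold and did not pass in DESeq2 (adjusted p = 0.135). For polymerase delta 2 of 4 were lower (Pold1 and Pold2), and for polymerase alpha-primase 2 of 4 (Prim1 and Pola2).

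At 0.5 µg/ml, 4 of 5 genes of de novo purine synthesis were higher (Paics, Gart, Atic and Impdh1) and Impdh2 did not pass. Of 11 genes of damage recognition, opening and incision in nucleotide excision repair, none of them among the 46 members, 8 were higher and Ddb2 was lower. Both groups were chosen after the values were seen. Among other such groups, all 6 genes of thymidylate supply were lower. Higher and lower counts were 1 and 2 of 3 for the single-strand binding complex RPA and 1 and 3 of 11 for Fanconi anaemia genes. For Brca1 and its partners they were 1 and 3 of 6. Over all tested genes 34.4% were higher and 33.1% lower. The 42 excision, mismatch and end-joining genes, which include the 11, had 13 higher and 14 lower.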

How the data were processed

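RNA was measured in 6 libraries of organoids, 2 per group, from poly-A strand-specific libraries read as 100 bp pairs, per the labels' protocols. The authors deposited expected counts per gene (RSEM's estimated counts, which need not be whole) and TPM, in which each library sums to the same total and depth is lost. The submitters' processing notes name STAR 2.7.3a and RSEM 1.3.3 and the builds GRCm39 and mm10; which of them made the tables is not stated. Table columns were tied to the groups through their names, Dox1 being read as 0.1 and Dox5 as 0.5 µg/ml.

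Expected counts were rounded and tested with edgeR 4.0.16 (R 4.3.3): TMM scaling, filterByExpr by group, a quasi-likelihood fit of all 6 libraries with 3 residual degrees of freedom, 2-sided contrasts, and Benjamini-Hochberg adjustment over 16975 genes. Standard errors were taken from the F statistic. Alternatives used DESeq2 1.42.0, limma 3.58.1 on log2(TPM + 1), other scalings and filters, and each library left out. An exact test of a single value with 2 libraries against 2 cannot go below p = 0.333. On simulated data for 0.5 µg/ml against control (16101 genes, 50 changed at each size), 12% of log2 changes of 0.25 were recovered, 72% at 0.5, 88% at 1 and 100% at 2, and 5.56% of 144 calls were of unchanged genes; fewer genes changed there than in the data, which makes the adjustment stricter. Replicates differed beyond sampling noise (chi-square per degree of freedom 7.95 to 8.84).

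The members and all lists were chosen with earlier results of these data known. Members named with values are, in each role, those with the highest and lowest change, those called at one dose and not another, and named partners; of other lists, the highest and lowest called gene and counts of 3 or fewer. Values named beyond this rule were chosen after they were seen. Levels of different genes were compared in TPM. Exon overlaps were read from GENCODE M21, where 19 members overlap a gene on the other strand and 3 on the same strand; the strand setting used for counting was not given in any source used.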

Additional observations from a re-analysis of the deposited data

How the results depend on the processing

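Every member called in the comparisons kept its direction under all 15 alternatives except Gins2. Its log2 difference was -0.176 at 0.5 µg/ml against control in limma on log2(TPM + 1), -0.185 with a pseudocount of 0.1 and -0.176 without a filter, and -0.0185, -0.0194 and -0.0185 between the doses; the cause was not tested. Of the gene-level values, 127 changed sign in an alternative without passing the test in either fit. At 0.5 µg/ml against control 5 of the 13 higher calls (Mcm10, Lig1, Brca1, Parp1 and Xrcc5) and 11 of the 18 lower calls were kept in all 15 alternatives. At 0.1 µg/ml 0 of 3 and 2 of 7 (Rfc3 and Trp53bp1) were kept, and between the doses 3 of 12 and 2 of 8.

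With limma on TPM (pseudocount 1, pseudocount 0.1, no filter) the members called higher were 8, 8 and 5 at 0.5 µg/ml against control in place of 13, 1, 1 and 0 at 0.1 µg/ml in place of 3, and 5, 5 and 3 between the doses in place of 12. Those called lower at 0.1 µg/ml were 4, 4 and 3 in place of 7, and between the doses 4 without a filter in place of 8. All genes called at 0.1 µg/ml were 3505, 3508 and 2520 in place of 5881. Scaling by the upper quartile or by total counts gave 13 and 13 members lower at 0.1 µg/ml and 13 and 13 between the doses, and at 0.5 µg/ml 26 and 26 lower in place of 18 and 10 and 9 higher. These scalings moved the higher share of all calls at 0.1 µg/ml from 60% to 50.4% and 51.8%, and the median of all genes by less than 0.1 on the log2 scale. At 0.5 µg/ml against control that median went from -0.00446 to -0.0933 and -0.0955. The median of the members went from -0.0798 to -0.169 and -0.171, so the shift was of the size of the member median itself. Testing every gene with at least 1 count gave 11 members lower at 0.1 µg/ml, and DESeq2 gave 4 lower between the doses.

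With 1 library left out, members higher and lower numbered 8 to 13 and 13 to 20 at 0.5 µg/ml, 1 to 2 and 3 to 13 at 0.1 µg/ml, and 9 to 13 and 4 to 11 between the doses, and genes called at 0.1 µg/ml 3800 to 5248. A group left with 1 library was assumed to vary like the others. Deviations of same-numbered libraries correlated at -0.142, 0.131 and -0.03, so the numbers were not taken as pairs. With the replicate number as a block, 13 members were higher and 15 lower at 0.5 µg/ml, 3 and 5 at 0.1 µg/ml, and 11 and 8 between the doses. A member that did not pass may still differ within its interval, and for Brca2 at 0.5 µg/ml the TPM estimate lay outside it.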

Other observations

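Genes that control entry into S phase, as drivers or as inhibitors, included larger changes than the 46 members. Of 26 genes of the E2F and pocket protein family, the G1/S cyclins and their kinases and inhibitors, 8 passed the edgeR test as higher and 14 as lower when 0.5 µg/ml was set against control. That was 30.8% higher and 53.8% lower, beside 34.4% and 33.1% of all tested genes. Ccnd1, cyclin D1, had 75.7 and 79.4 CPM in the control libraries, 169 and 179 under 0.1 µg/ml, and 456 and 440.3 under 0.5 µg/ml, and a log2 fold change of 2.53 ± 0.05 (adjusted p = 1.36e-10). Cdkn1a, the inhibitor p21, rose as well, with 130.2 and 141 CPM in the control libraries, 226 and 230.4 under 0.1 µg/ml, and 427 and 412 under 0.5 µg/ml, and a log2 fold change of 1.63 ± 0.05 (adjusted p = 2.13e-09). The inhibitor gene Cdkn2c was lowest, with 13.7 and 15.0 CPM in the control libraries, 12.6 and 13.2 under 0.1 µg/ml, and 5.06 and 5.16 under 0.5 µg/ml, and a log2 fold change of -1.48 ± 0.09 (adjusted p = 3.12e-07). E2f1 itself did not pass (0.12 ± 0.09).

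Of 20 genes of mitosis, 14 were lower at 0.5 µg/ml and Aurka alone was higher (0.18 ± 0.05), against 33.1% lower and 34.4% higher over all tested genes, with a median log2 fold change of -0.29 beside -0.08 for the 46 replication and repair members. Mki67, the proliferation marker, had 679 and 661 CPM in the control libraries, 594 and 617 under 0.1 µg/ml, and 533 and 528 under 0.5 µg/ml, a log2 fold change of -0.34 ± 0.04 (adjusted p = 3.18e-05). At 0.1 µg/ml 7 mitosis genes were lower and 0 higher, against 13.8% and 20.8% of all tested genes. The part of these changes in the levels of the members was not tested.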
